A study of Mus musculus with 9 samples.

Results

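The genes described here mark the first lineages of the mouse embryo and were read in cultured embryonic stem cells after knockdown of Apela, a gene of a short secreted peptide. The series asks how Apela RNA bears on p53-dependent apoptosis, and the markers bear on whether the cells kept their state. The list held 39 genes in 4 layers, grouped by their textbook roles. A member was measured through the brightest probe set that carried its symbol alone in the platform annotation, and 38 of the 39 had such a probe set, among 19938 genes in all. These were 13 markers of primitive endoderm, 5 of definitive endoderm, 10 of primitive streak and mesoderm, and 10 of neuroectoderm. T, the gene of Brachyury, had no such probe set and was not analysed here.

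R1E, the cell line used, derives from mouse embryonic stem cells and was kept in 15% fetal bovine serum. The medium held 1000 units/ml of LIF, which keeps such cells undifferentiated. All groups received a lentivirus that expresses a short hairpin RNA, and none a drug. The control hairpin (shLuc) targets luciferase, a gene that mice lack. The hairpins shApela_1 and shApela_2 target Apela, and every group has 3 arrays. The labels do not say whether repeats were separate cultures, so the p-values rest on the spread between these samples, which may be technical.

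In the blastocyst the inner cell mass divides into epiblast, the source of embryonic stem cells, and primitive endoderm. Gata6 and then Sox17, Gata4 and Sox7 direct primitive endoderm, which secretes a basement membrane of laminin and type IV collagen and later takes up maternal protein through cubilin and Dab2. At gastrulation, epiblast cells that pass through the primitive streak become mesoderm and definitive endoderm, and those that stay in front become neuroectoderm. Stem cell cultures with serum can hold a few cells that have started along any of these paths, so these markers serve as a check for differentiation. In bulk RNA, fewer cells of a type and less RNA per cell cannot be told apart.

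Apela was lower on all 6 knockdown arrays. Its log2 level (the logarithm to base 2 of the array signal) was 11.40, 11.31 and 11.19 in shLuc, 9.76, 9.68 and 9.65 in shApela_1, and 9.79, 9.79 and 9.56 in shApela_2. No knockdown array overlapped a control array, and the differences were -1.60 (SE 0.08, limma, adjusted p = 0.000197) and -1.58 (SE 0.08, adjusted p = 0.000219). Pluripotency genes were high in every group: all 19 on the list lay above the array floor defined below on all 9 arrays, with Pou5f1 at 12.07 ± 0.09 (SD, n = 3), Sox2 at 12.09 ± 0.04 and Nanog at 12.28 ± 0.04 in shLuc. The third shApela_2 array stood apart, with a median of 7.12 against 7.03 to 7.07 on the other 8 and an interquartile range of 3.29 against 3.50 to 3.59. Several results that rest on it are given with and without it, and the others only with it.

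The members ranged in shLuc from 5.45 (Cer1) to 11.08 (Sparc), with a median of 6.91 beside 7.27 over all genes. The array floor was set at the 95th percentile, on each array, of 1228 genes for olfactory, vomeronasal and taste receptors, which work in sensory neurons. It lay between 6.0 and 6.07 on 8 arrays and at 6.26 on the third shApela_2 array. On all 9 arrays, 27 of the 38 members (71.1%) lay above it, beside 66.9% of all genes, and 8 members lay below it throughout. A stricter floor was the 99th percentile of the same receptor genes (6.99 to 7.43). On all 9 arrays 11 of the 38 members lay above it, beside 9530 of all 19938 genes. Another was the 95th percentile of 37 Hox cluster genes (7.02 to 7.29), a floor chosen after seeing the data. Above that lay 13 of the 38 members, beside 9833 of all genes. Under both, the share of members was lower than that of all genes. Probe sets differ in affinity, whose part in these levels was not tested, so a level above the floor is a description and not evidence of a transcript.

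**Figure D1:**
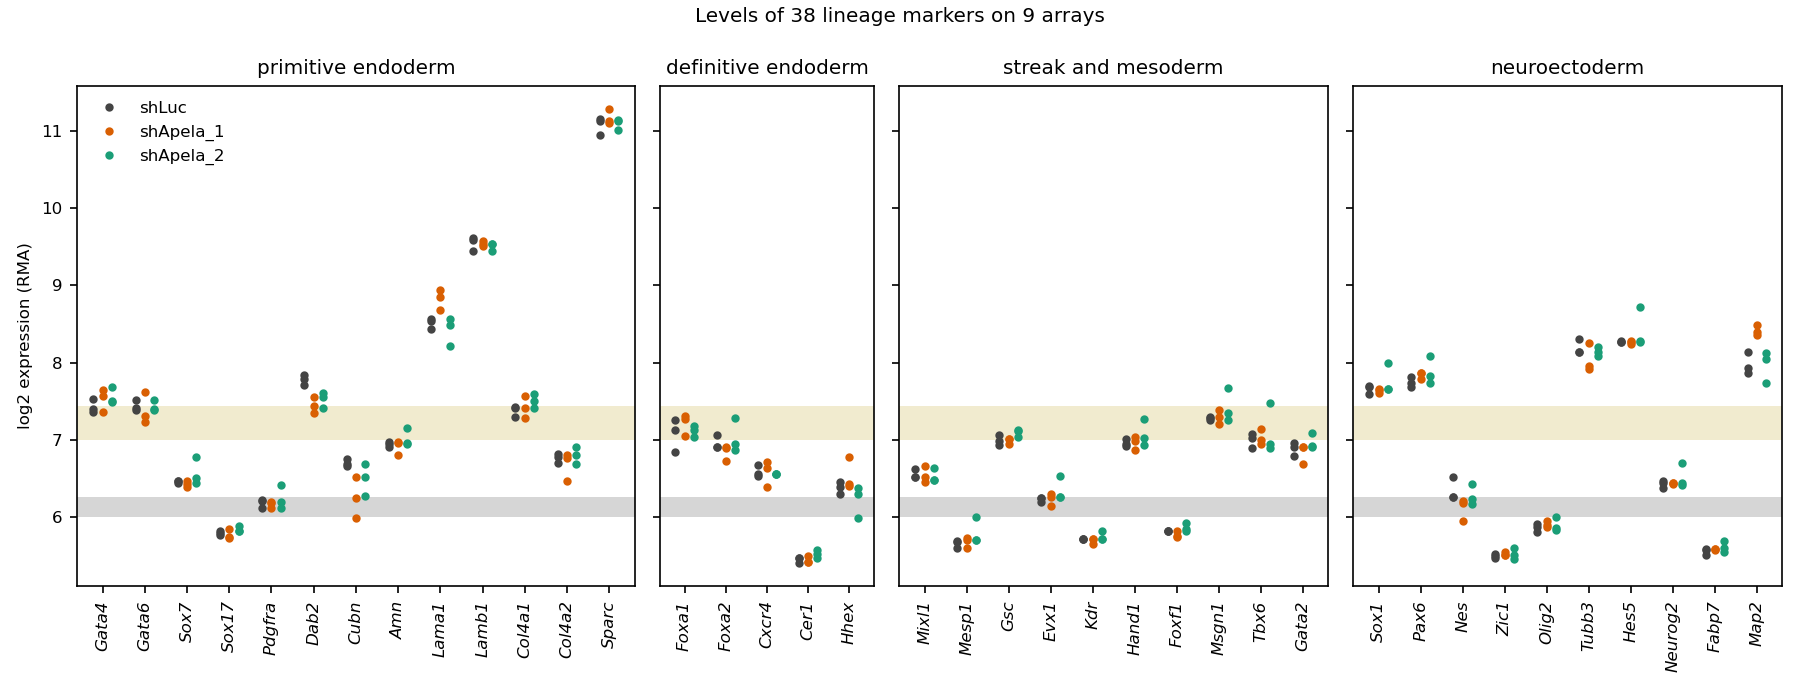
Log2 expression of the 38 members on the 9 arrays, 1 point per array, coloured by hairpin and split into the 4 layers. The grey band spans the array floors (6.0 to 6.26) and the pale band the stricter floors (6.99 to 7.43); Sparc and Lamb1 lie far above both, and Sox17, Cer1, Mesp1, Kdr, Foxf1, Zic1, Olig2 and Fabp7 lie below the floor of their own array on all 9.

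In primitive endoderm the layer was uneven: 12 of the 13 members were above the floor on all 3 shLuc arrays, and 7 above the stricter one. Among the transcription factors, Gata4 measured 7.53, 7.36 and 7.40 in shLuc, 7.57, 7.65 and 7.36 in shApela_1, and 7.49, 7.50 and 7.68 in shApela_2. Gata6, which starts the primitive endoderm programme, measured 7.41, 7.52 and 7.38, then 7.23, 7.62 and 7.31, then 7.38, 7.52 and 7.40 in the same order of groups. The groups overlapped for both genes. Sox7 was 0.43 above the floor in shLuc (level 6.45 ± 0.02). Sox17 was below the floor throughout, at 5.79, 5.81 and 5.76 in shLuc, 5.73, 5.84 and 5.74 in shApela_1, and 5.81, 5.82 and 5.88 in shApela_2. Pdgfra, a growth factor receptor of this lineage, was close to the floor at 6.18 ± 0.06.

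Sparc and the laminin genes stood highest above the floor in this layer. Sparc, a secreted matrix glycoprotein, measured 11.08 ± 0.12 in shLuc, and the laminin genes Lamb1 and Lama1 measured 9.55 ± 0.09 and 8.51 ± 0.08. The type IV collagen genes Col4a1 and Col4a2 measured 7.38 ± 0.07 and 6.76 ± 0.05. Col4a1 was 7.41, 7.42 and 7.30 in shLuc, 7.41, 7.56 and 7.28 in shApela_1, and 7.41, 7.50 and 7.59 in shApela_2, with overlapping groups. These collagens are neighbours read in opposite directions, and their RefSeq promoter windows overlap by 78 bases. From the further list fixed for this layer, the basement membrane genes Lamc1, Nid1 and Nid2 measured 10.46 ± 0.07, 10.26 ± 0.14 and 10.85 ± 0.07, and the apolipoprotein gene Apoe 11.59 ± 0.08. The secreted visceral endoderm products Ttr and Afp were below the floor on all 9 arrays (5.20 ± 0.03 and 5.51 ± 0.11). Matrix genes are also made by other cells. The fibroblast markers Postn, Lum and Dcn were below the floor on all 9 arrays, while 10 of the 14 fibroblast markers measured were above it on all 9.

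In definitive endoderm, 4 of 5 members were above the floor in shLuc and 0 above the stricter one. Foxa1, a pioneer factor that opens chromatin, measured 7.13, 7.25 and 6.84 in shLuc, 7.31, 7.27 and 7.05 in shApela_1, and 7.18, 7.04 and 7.13 in shApela_2. Its relative Foxa2 measured 7.06, 6.90 and 6.90, then 6.72, 6.89 and 6.90, then 6.86, 6.95 and 7.28. The Foxa1 groups overlapped, while the highest shApela_1 value of Foxa2 lay just under the lowest of shLuc. The chemokine receptor gene Cxcr4 measured 6.58 ± 0.08 in shLuc and the homeobox gene Hhex 6.38 ± 0.08. Cer1, a secreted inhibitor of Nodal and BMP, was below the floor on every array, from 5.40 to 5.47 in shLuc, 5.41 to 5.49 in shApela_1 and 5.46 to 5.57 in shApela_2. Of 10 further definitive endoderm markers, 9 were above the floor on all 9 arrays (90%), beside 18 of 24 further primitive endoderm markers (75%). In shLuc these 10 ranged from 5.96 (Foxa3) to 11.77 (Trh), with a median of 7.05. Above the stricter floor on all 9 arrays were 5 of these 10 and 9 of these 24.

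In streak and mesoderm, 7 of 10 were above the floor, and only Msgn1, a factor of presomitic mesoderm, was above the stricter one (7.28 ± 0.02). Mixl1, a homeobox factor of the streak, measured 6.62, 6.52 and 6.52 in shLuc, 6.52, 6.45 and 6.66 in shApela_1, and 6.48, 6.48 and 6.63 in shApela_2. Gsc, the organiser factor Goosecoid, measured 7.06, 6.98 and 6.93, then 7.01, 6.94 and 7.01, then 7.04, 7.11 and 7.13. Both genes overlapped between the hairpin groups and shLuc. The streak factor Evx1 and the paraxial mesoderm factor Tbx6 measured 6.22 ± 0.03 and 6.99 ± 0.09 in shLuc. Hand1 (6.96 ± 0.05) and Gata2 (6.89 ± 0.08) also mark trophoblast. Of 11 trophectoderm markers measured, 7 were above the floor on all 9 arrays, among them Krt8 (9.88 in shLuc), Tfap2c (9.30) and Krt18 (9.12), and 4 were below it throughout, among them the defining factors Cdx2, Elf5 and Gata3. Gata2 measured 6.96, 6.91 and 6.79 in shLuc, 6.91, 6.91 and 6.68 in shApela_1, and 6.92, 6.91 and 7.08 in shApela_2. Foxf1, the lateral mesoderm factor, and Kdr, a VEGF receptor gene, were below the floor throughout, with shLuc means of 5.81 and 5.71. So was Mesp1, a first cardiac mesoderm factor, at 5.60, 5.67 and 5.69 in shLuc, 5.60, 5.70 and 5.72 in shApela_1, and 5.70, 5.70 and 6.0 in shApela_2. Of 26 further streak and mesoderm markers, 16 were above the floor on all 9 arrays and 6 below it throughout. The highest in shLuc were the signalling ligand genes Bmp4 and Nodal, at 10.72 and 10.05. Those below throughout were Cdx4, Isl1, Tbx5, Mef2c, Foxc1 and Foxc2. Foxf1 measured 5.81 on all 3 shLuc arrays, 5.75, 5.81 and 5.74 in shApela_1, and 5.81, 5.84 and 5.92 in shApela_2. Its differences were -0.04 with shApela_1 and 0.05 with shApela_2. A slightly dimmer Foxf1 probe set, also below the floor at 5.77 in shLuc, differed by -0.11 and -0.04.

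In neuroectoderm, 7 of 10 members were above the floor in shLuc, and 5 were above the stricter one on all 9 arrays. Sox1, a first neural factor, measured 7.70, 7.59 and 7.68 in shLuc, 7.64, 7.61 and 7.66 in shApela_1, and 7.66, 7.66 and 8.0 in shApela_2. Pax6 measured 7.81, 7.68 and 7.74, then 7.86, 7.79 and 7.87, then 8.08, 7.73 and 7.83. For both genes the hairpin groups overlapped shLuc. The cytoskeletal genes Tubb3 and Map2 and the Notch target Hes5 measured 8.19 ± 0.10, 7.98 ± 0.14 and 8.28 ± 0.01 in shLuc. Neurog2, a proneural factor, measured 6.43 ± 0.05, and Nes, the gene of the filament nestin, 6.34 ± 0.14, which put them 0.40 and 0.31 above the floor. Zic1, Olig2 and Fabp7, genes of later neural progenitors, were below the floor on all 9 arrays, with shLuc means of 5.49, 5.86 and 5.55.

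None of the 38 members passed the test with either hairpin (limma, Benjamini-Hochberg adjustment over all genes, threshold 0.05). With shApela_1, 0 members were called where 0.336% of all genes were, and 5 members (Dab2, Cubn, Nes, Lama1 and Map2) had an unadjusted p under 0.05 where 7.69% of all genes did. With shApela_2, 0 members were called where 0.015% of all genes were, and 1 member (Dab2) had an unadjusted p under 0.05 beside 5.77% of all genes. Changes are given as differences of log2 means. With shApela_1 they ran from -0.45 (Cubn) to 0.43 (Map2), with 16 members higher and 22 lower and a median of -0.01, beside 54.5% of all genes higher, 45.5% lower and a median of 0.01. With shApela_2 they ran from -0.26 (Dab2) to 0.15, with 27 higher and 11 lower and a median of 0.05, beside 57.5% of all genes higher, 42.4% lower and a median of 0.02. Without the third shApela_2 array, 23 members were higher with shApela_2 (53.2% of all genes), and the median was 0.01 over the members and 0.00 over all genes.

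The intervals bound the change in array signal of 1 gene at a time, given the spread between these samples, which may be technical. The 95% interval of no member reached a 2-fold change in either comparison. With shApela_2 all 38 intervals lay within 1.5-fold in both directions. With shApela_1, 36 did, and the exceptions were Cubn (down to -0.76) and Map2 (up to 0.68). For the factors that define the layers, the intervals with shApela_1 were -0.10 to 0.29 for Gata4, -0.27 to 0.17 for Gata6, -0.36 to 0.12 for Foxa2, -0.16 to 0.14 for Mixl1, -0.22 to 0.17 for Sox1 and -0.09 to 0.29 for Pax6. Those with shApela_2 were -0.07 to 0.32, -0.22 to 0.21, -0.17 to 0.32, -0.17 to 0.13, -0.08 to 0.31 and -0.05 to 0.33. For members below the floor, such as Sox17 (-0.11 to 0.09 with shApela_1), an interval bounds the change of a signal at the floor and not that of the RNA. Low values are compressed by RMA, so for members a little above the floor the change of the RNA may also be larger than that of the signal.

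**Figure D2:**
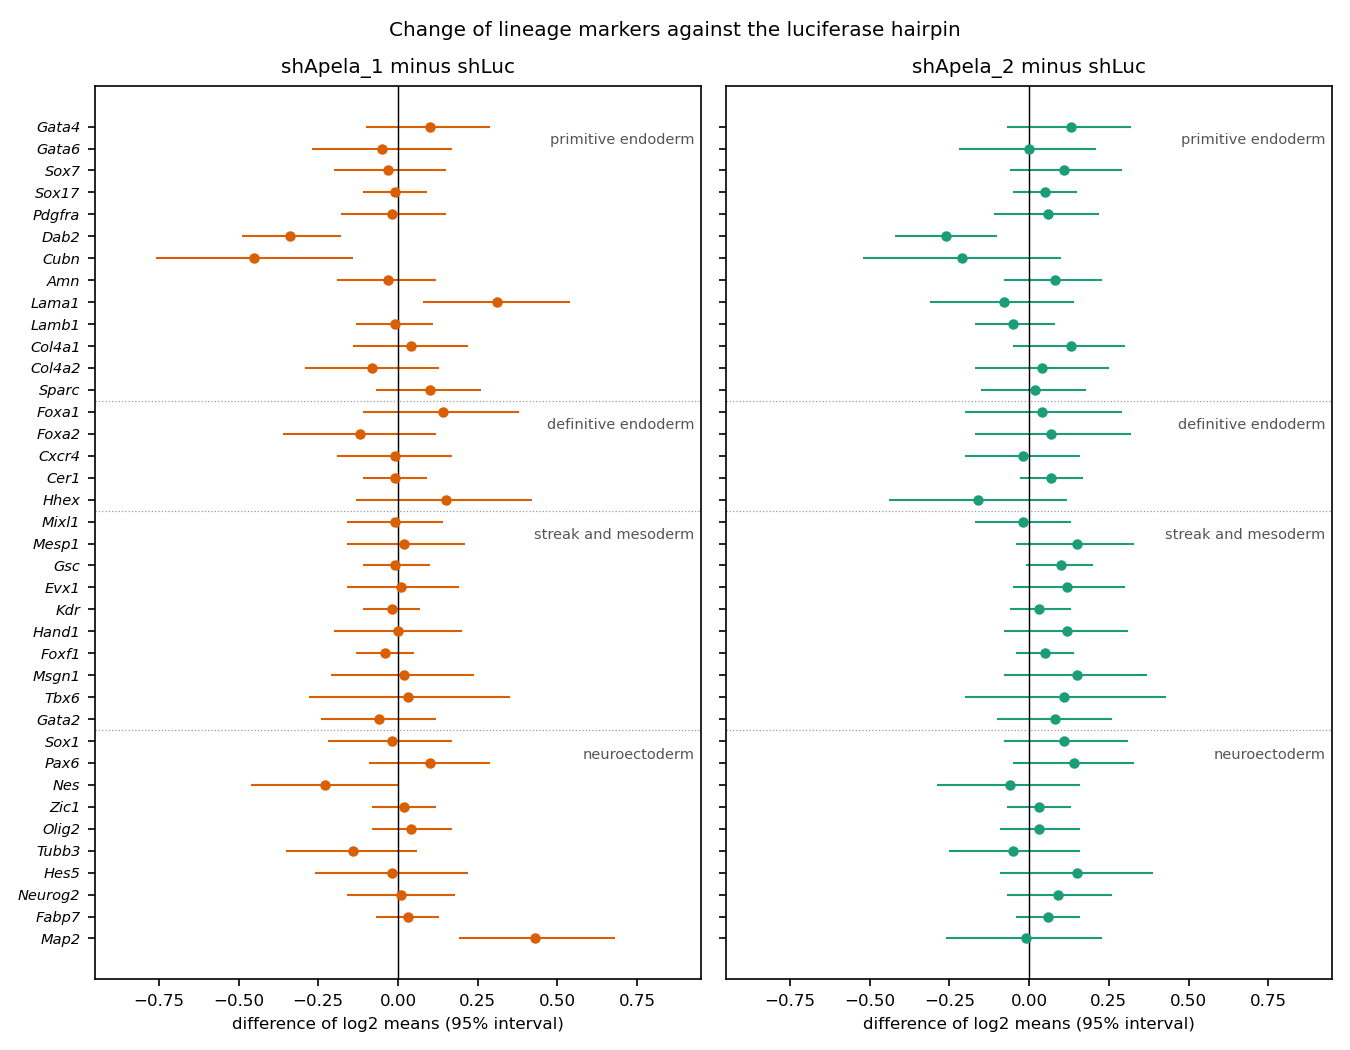
Difference of log2 means from shLuc for each member with shApela_1 and shApela_2, with limma's 95% intervals, in the order of the layers. With shApela_1 the intervals of Dab2, Cubn, Nes, Lama1 and Map2 leave out 0, and with shApela_2 that of Dab2 does; 0 members passed after adjustment over all genes.

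The member with the smallest p was Dab2, an endocytic adaptor of visceral endoderm that is a target of GATA factors. It measured 7.84, 7.79 and 7.71 in shLuc, 7.35, 7.55 and 7.43 in shApela_1, and 7.60, 7.55 and 7.41 in shApela_2. All 6 arrays with Apela hairpins lay below all 3 control arrays, a separation that 2.17% of all genes showed in either direction and 0.727% in this one, and that 1 of the 38 members showed. The difference was -0.34 with shApela_1 (SE 0.07, limma, adjusted p = 0.117). With shApela_2 it was -0.26 (SE 0.07, limma, adjusted p = 0.68) and -0.20 without the third array of that group. Both comparisons use the same shLuc arrays. Under limma's array weights, which count an array less the more it departs from its group, the adjusted p with shApela_1 was 0.0209 (3.45% of all genes called), and it ranged up to 0.424 over the alternatives. With the replicate block it was 0.0644, and 0 members were called where 0.953% of all genes were. A dimmer Dab2 probe set, below the floor at 4.74 in shLuc, differed by 0.02 and 0.04.

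Cubn, the gene of the endocytic receptor cubilin that works with Dab2, measured 6.68, 6.75 and 6.66 in shLuc, 5.98, 6.52 and 6.24 in shApela_1, and 6.52, 6.68 and 6.27 in shApela_2. The shApela_1 arrays lay below shLuc but spread widely, and the shApela_2 arrays reached into the shLuc range. On the first shApela_1 array Cubn, at 5.98, lay under the floor of 6.05, so the size of its decrease there is limited by the floor. The difference in Cubn was -0.45 with shApela_1 (SE 0.14, limma, adjusted p = 0.349) and -0.21 with shApela_2 (adjusted p = 0.68). Amn, the membrane partner of cubilin, measured 6.94 ± 0.03 in shLuc and differed by -0.03 and 0.08, and Lrp2, the partner receptor megalin from the further list, measured 9.18, 9.14 and 9.11 in the 3 groups.

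The promoters of Dab2 and Cubn are shown because these endocytic genes gave the lowest differences from shLuc with both hairpins and GATA factors act in this lineage. Each run is the 250 bases before a RefSeq start site (GRCm38.p6), with matches to AGATAA or TGATAA on either strand in capitals. The Dab2 window lies at chr15:6299539-6299788 on the plus strand and holds 1 match, 179 bases before the start. The Cubn window lies at chr2:13491877-13492126 on the minus strand and holds 0 matches, as did the window of a further Dab2 start site.
Dab2: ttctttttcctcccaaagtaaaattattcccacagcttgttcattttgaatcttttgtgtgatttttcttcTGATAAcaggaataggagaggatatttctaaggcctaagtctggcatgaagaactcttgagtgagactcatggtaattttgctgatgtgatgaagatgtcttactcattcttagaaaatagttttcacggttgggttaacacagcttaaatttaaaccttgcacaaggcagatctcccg
Cubn: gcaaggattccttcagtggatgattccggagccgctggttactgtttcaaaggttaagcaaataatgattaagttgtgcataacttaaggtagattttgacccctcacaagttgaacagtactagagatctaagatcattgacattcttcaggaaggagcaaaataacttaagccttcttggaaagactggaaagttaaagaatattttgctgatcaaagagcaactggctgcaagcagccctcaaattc
Such a match stood in 16.6% of all 32851 windows and in 6 of the 35 windows of the 30 members that had any (17.1%: Dab2, Foxa2, Msgn1, Neurog2, Pax6 and Zic1). A match is a run of letters and not a bound site, and which start site the cells used was not tested.

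Lama1 and Map2 had their highest values on the shApela_1 arrays, and neither passed the test. Lama1, the laminin chain of early basement membranes, measured 8.43, 8.57 and 8.54 in shLuc, 8.68, 8.94 and 8.85 in shApela_1, and 8.49, 8.57 and 8.22 in shApela_2. Map2, a microtubule-associated protein of neurons, measured 7.93, 8.14 and 7.86, then 8.36, 8.39 and 8.48, then 8.04, 8.12 and 7.73. For both, every shApela_1 array lay above every other array. The differences with shApela_1 were 0.31 for Lama1 (SE 0.10, limma, adjusted p = 0.387) and 0.43 for Map2 (SE 0.11, adjusted p = 0.197, and 0.0153 with array weights). With shApela_2 they were -0.08 and -0.01, or 0.02 and 0.10 without the third array of that group.

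Nes lay on the other side within the same layer as Map2. It measured 6.26, 6.26 and 6.51 in shLuc, 6.20, 5.95 and 6.18 in shApela_1, and 6.17, 6.23 and 6.43 in shApela_2. The shApela_1 arrays lay just below shLuc, and the difference was -0.23 (SE 0.10, limma, adjusted p = 0.639). On the second shApela_1 array Nes, at 5.95, lay under the floor of 6.07. The groups did not overlap for 6 of the 38 members with shApela_1 (15.8%), against 13.7% of all genes. Lama1 and Map2 lay above shLuc, as did 8.05% of all genes, and Dab2, Cubn, Foxa2 and Nes below it, as did 5.61%. With shApela_2 they did not overlap for 3 members (7.89%), against 10.3% of all genes: Mesp1 and Evx1 lay above (5.68% of all genes) and Dab2 below (4.65%). Both shares were near those of all genes.

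**Figure D3:**
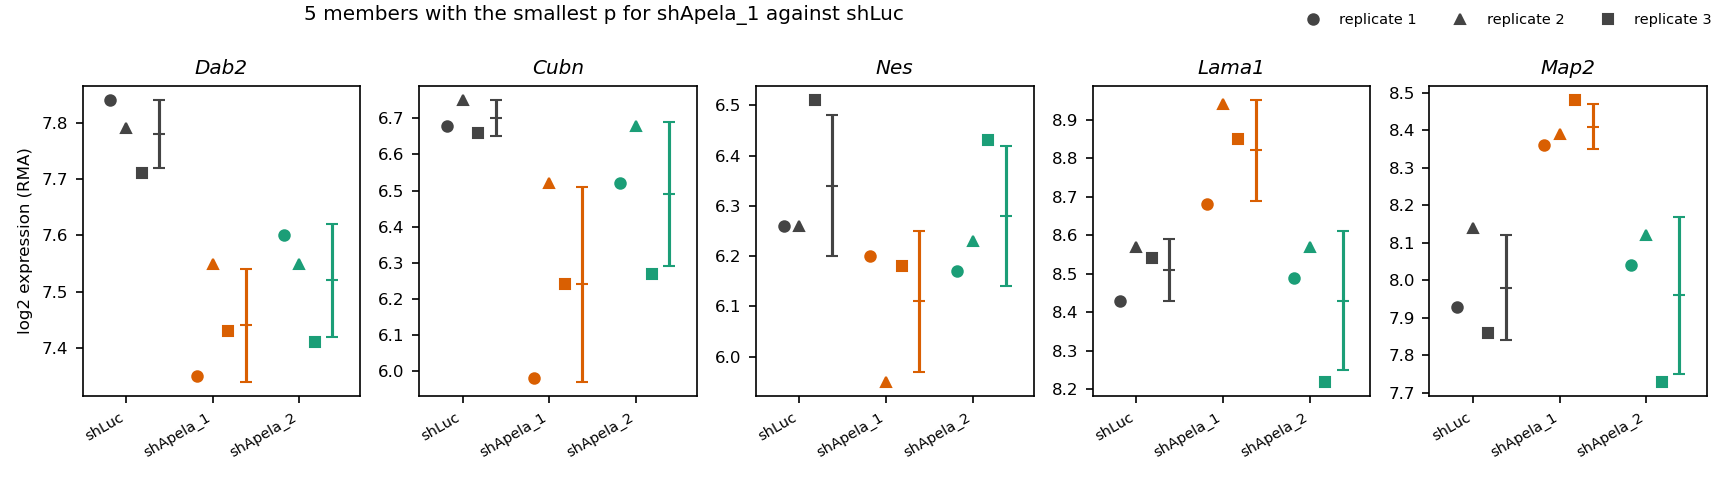
Log2 expression of Dab2, Cubn, Nes, Lama1 and Map2 by array, with the mean and SD of the 3 arrays of each group beside the points; each panel has its own scale, which does not start at 0. Dab2 is lower than shLuc on all 6 arrays with Apela hairpins, and Lama1 and Map2 are highest on the 3 shApela_1 arrays.

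The hairpins were also set against each other. Of the members, 0 passed where 0.948% of all genes did, or 3.28% with the replicate block, under which 0 members passed as well, and 3 had an unadjusted p under 0.05 where 12.9% of all genes did. Relative to shApela_1, Map2 differed in shApela_2 by -0.45 (SE 0.11, limma, adjusted p = 0.115, and 0.0162 with array weights, which called 7.25% of all genes), Lama1 by -0.40 (SE 0.10, adjusted p = 0.13) and Hhex by -0.31 (SE 0.12, adjusted p = 0.333). Hhex measured 6.77, 6.42 and 6.40 in shApela_1 and 6.37, 6.30 and 5.99 in shApela_2. The last of these values lay under the floor of its array, 6.26. The groups did not overlap for 4 members (10.5%), against 17.6% of all genes: Map2, Lama1 and Hhex lay lower in shApela_2 (10.1% of all genes) and Gsc higher (7.49%). Of the 38 members 29 were higher in shApela_2 than in shApela_1 (57.8% of all genes), or 23 without the third shApela_2 array (49.5%). For Map2, Lama1 and Hhex, without the third shApela_2 array the differences were -0.33, -0.29 and -0.19.

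With the mean of both hairpins against shLuc, 0 members passed beside 0.015% of all genes, and 2 (Dab2 and Cubn) had an unadjusted p under 0.05 beside 4.58%. Dab2 differed by -0.30 (limma, adjusted p = 0.403).

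The streak and mesoderm markers had the highest layer median with shApela_2, and it depended on 1 array. This median difference was 0.10, with 9 of 10 members above 0 and Mixl1 at -0.02, and 0 of 10 had an unadjusted p under 0.05 in limma. On the third shApela_2 array, 9 of the 10 had their highest value of the 9 arrays, Mixl1 being the exception. Without that array the median was 0.02 and 7 of 10 lay above 0. Msgn1 shows the pattern, with 7.28, 7.30 and 7.26 in shLuc and 7.35, 7.25 and 7.67 in shApela_2, as does Tbx6, with 7.07, 6.89 and 7.02 in shLuc and 6.89, 6.95 and 7.47 in shApela_2. In neuroectoderm, Hes5 measured 8.28, 8.27 and 8.27 in shLuc and 8.27, 8.28 and 8.72 in shApela_2, and its difference went from 0.15 to 0.00 without the array.

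The same array was highest for genes far from these lineages too. It held the highest value for 24 of the 38 members (63.2%), for 61.8% of the sensory receptor genes and for 38.1% of all genes, and for 3 of the 19 pluripotency genes (15.8%). Its difference from the mean of the first and second shApela_2 arrays had a median of 0.23 over the 15 members with a level from 6 to 7 and 0.16 over the 3195 genes in that range. In the range from 8 to 9 it was -0.11 over 4 members and -0.11 over 2722 genes. The streak markers deviated from their 9-array means by a median of 0.22 on this array, neuroectoderm by 0.11, primitive endoderm by 0.09, definitive endoderm by -0.00 and the receptor genes by 0.08. On the third shApela_1 array, primitive endoderm deviated by -0.11 and streak markers by -0.08, and 12 of the 38 members had their lowest value there (31.6%), beside 14.1% of all genes.

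**Figure D4:**
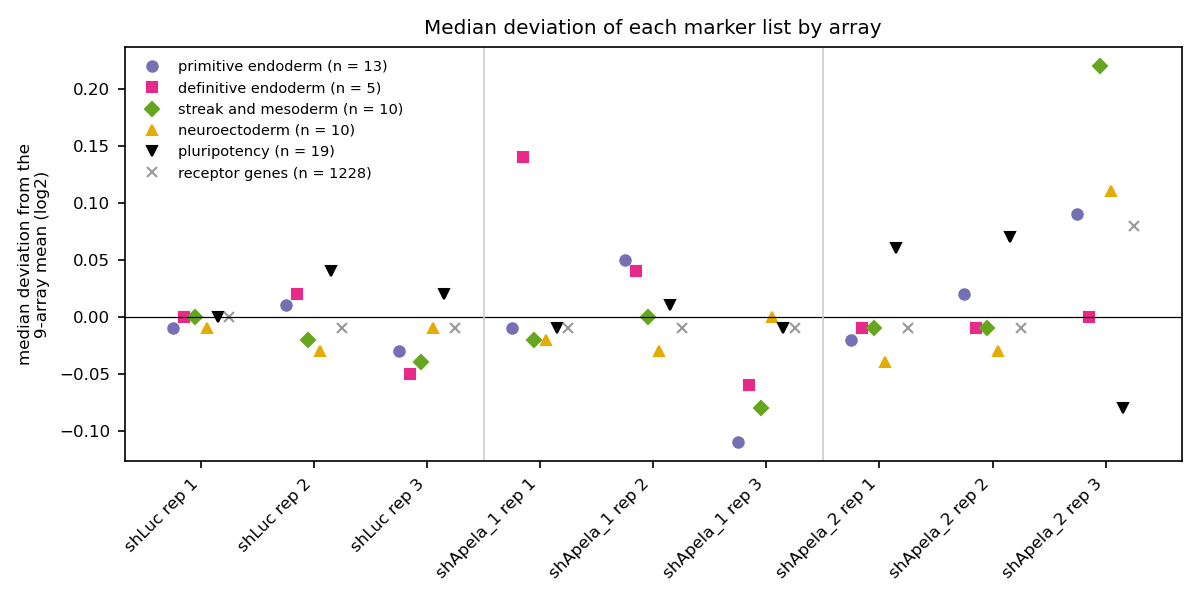
Median deviation from the 9-array mean (log2) for the 4 layers, the 19 pluripotency genes and the 1228 sensory receptor genes on each array. On the third shApela_2 array streak markers reach 0.22, neuroectoderm 0.11 and receptor genes 0.08, while pluripotency genes are at -0.08.

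By layer, the medians with shApela_1 were -0.02 for primitive endoderm (4 of 13 higher), -0.01 for definitive endoderm (2 of 5), -0.00 for streak and mesoderm (4 of 10) and 0.02 for neuroectoderm (6 of 10). With shApela_2 they were 0.04 (8 of 13 higher), 0.04 (3 of 5), 0.10 (9 of 10) and 0.05 (7 of 10). The SD between arrays of a group, pooled over groups, had a median of 0.11 over the members and reached 0.20 for Cubn and Tbx6. With arrays 1 and 2 of each group alone, the shApela_2 medians were 0.01, -0.08, 0.01 and 0.00.

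Of 83 further markers of the same layers, 0 passed the limma test with either hairpin, and 6 with shApela_1 and 4 with shApela_2 had an unadjusted p under 0.05, beside 7.69% and 5.77% of all genes. With shApela_1, 14 of 24 further primitive endoderm genes were lower (median -0.05), and the smallest p was that of the retinol carrier gene Rbp4 (-0.22, limma, adjusted p = 0.279). Leads of the other lists were Trh in definitive endoderm (0.16, adjusted p = 0.432), the Wnt ligand gene Wnt3 in streak and mesoderm (-0.13, adjusted p = 0.519) and Hesx1 in neuroectoderm (-0.18, adjusted p = 0.509). With shApela_2 the leads were Thbd (0.16), Dkk1 (0.17), Tbx5 (0.12) and Nkx6-1 (0.12), each with adjusted p = 0.68 in limma. Of these leads, Hesx1, Thbd and Tbx5 lay below the floor on all 9 arrays, so theirs are differences of a signal at the floor. Dkk1 measured 6.47, 6.43 and 6.52 in shLuc and 6.52, 6.55 and 6.85 in shApela_2, with its highest value on the third array.

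Markers of other cell types were read beside these lists. Of 11 trophectoderm markers 8 had a lower mean with shApela_1 (45.5% of all genes), 0 passed (0.336% of all genes) and 3 had an unadjusted p under 0.05 in limma (7.69% of all genes). The median difference of these 11 with shApela_1 was -0.06. Their summed linear level ran from 2888 to 3384 in shLuc, 2314 to 2970 in shApela_1 and 2567 to 3286 in shApela_2. Such a sum follows its brightest genes, here Krt8, Tfap2c and Krt18. Krt8, a keratin of simple epithelia, differed by -0.49 with shApela_1 (limma, adjusted p = 0.335, and 0.0263 with the replicate block) and its partner Krt18 by -0.46 (adjusted p = 0.706, and 0.0308 with the block). Tead4, from the same list, went the other way. It measured 8.56, 8.39 and 8.46 in shLuc, 8.86, 8.82 and 8.62 in shApela_1, and 8.56, 8.29 and 8.28 in shApela_2. Of the 3 markers with an unadjusted p under 0.05 with shApela_1, 1 was higher and 2 were lower. Between the hairpins Tead4 had the smallest p of this list (limma, adjusted p = 0.107). The third shApela_1 array held the lowest value for 8 of these 11. Of 14 fibroblast markers 9 had a lower mean with shApela_1, and the median difference was -0.02. Of these markers 0 passed and 2 had an unadjusted p under 0.05 in limma, beside the same shares of all genes. The sums ran from 2361 to 2843, 2135 to 2552 and 2336 to 2511 in the same order of groups. The smooth muscle actin gene Acta2 differed by -0.67 with shApela_1 (limma, adjusted p = 0.576, and 0.0443 with the block). The part of these other cell types in the differences of Dab2 and Cubn was not tested. Among pluripotency genes, Lin28a, whose protein holds back let-7 maturation, was higher in shApela_2 than in shApela_1 by 0.50 (SE 0.08, limma, adjusted p = 0.0266). In the main fit, on all 9 arrays without array weights or block, it was the 1 gene of all these lists past the test in the 4 comparisons. With shApela_1 it differed by -0.44 (adjusted p = 0.064, and 0.0119 with the block). Its levels were 10.21 ± 0.08 in shLuc, 9.77 ± 0.07 in shApela_1 and 10.27 ± 0.14 in shApela_2.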

How the data were processed

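Expression was measured on 9 Affymetrix arrays, 3 per hairpin, with groups and replicate numbers taken from the sample titles. The deposited table holds log2 expression values made by the authors with RMA in Partek 6.6, per the submitters' processing notes. Its settings and the log base are not stated, and the range of the values fits base 2. RMA summarises the probes of a set after background correction and quantile normalization, so a change shared by most genes would be removed and low values are compressed. Of 28853 probe sets, 21775 had 1 gene symbol, 1578 several and 5500 none; only the first kind was named, which gave 19938 genes, each by its brightest probe set. RefSeq identifiers matched 21684 probe sets and changed 0 symbols.

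Genes were fitted in R 4.3.3 with limma 3.58.1 (lmFit, eBayes, two-sided) on all 9 arrays, with Benjamini-Hochberg adjustment over all genes and a threshold of 0.05, and the fit was tested on simulated data. Precision is limited by the number of arrays. Array weights and a replicate block were among the alternatives. The members and lists were chosen with earlier results of these data known. Values by array were given for the 2 members of each layer with the smallest p per hairpin and for the defining factors; Lama1, other members and the further markers beyond the 1 per list with the smallest p were named after their values were seen. Deviations of arrays with the same number correlated at 0.44, 0.40 and 0.68 between shLuc and shApela_1, at 0.18, 0.21 and 0.21 between the hairpins, and at -0.01, 0.67 and 0.47 between shLuc and shApela_2. By the rule of over 0.1 in every pair, the numbers pair shLuc with shApela_1 and the hairpins with each other. They do not pair shLuc with shApela_2. Arrays of unlike number were not compared, so from the data alone this rule cannot settle whether the numbers mark pairs.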

Additional observations from a re-analysis of the deposited data

How the results depend on the processing

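None of the 9 single-member changes with an unadjusted p under 0.05 (5 with shApela_1, 1 with shApela_2 and 3 between the hairpins; the mean of both hairpins was not followed) reversed its sign under the alternatives tried, and members passing adjustment appeared only with array weights: 2 with shApela_1 (Dab2 and Map2) and 1 between the hairpins (Map2). Those weights ran from 0.102 on the third shApela_2 array to 2.538. The genes called over the whole table moved more, and why was not tested. For shApela_1 against shLuc, 67 became 37 with an intensity trend and robust prior, 31 with centred medians, 688 with array weights, 190 with the replicate block, 44 in a fit of the compared groups, 249 with replicates 1 and 2 and 7 at an adjusted p of 0.01, and 3 (without the second shApela_1 array) to 146 (without the third shApela_2 array) with 1 array left out. For shApela_2, 3 became 7 with quantile normalization, 23 with array weights, 8 with the replicate block and 2 to 6 with 1 array left out. For the mean of both hairpins, 3 became 7, 31 with array weights, 1 at 0.01 and 1 to 6. Between the hairpins, 189 became 1446 with array weights, 653 with the replicate block, 28 in a fit of the compared groups, 434 with replicates 1 and 2, 27 at 0.01 and 19 to 222 with 1 array left out. The replicate block changed no call of a member.

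Layer medians moved by more than their own spread between arrays of a group (1 SD) in these cases. With dim genes left out, primitive endoderm with shApela_1 was 0.04, definitive endoderm 0.14 with shApela_1, 0.09 with both hairpins and -0.09 between them, and neuroectoderm with shApela_2 0.11. With array weights, definitive endoderm was -0.03 and streak 0.02 with shApela_2, and between the hairpins the 4 layers were 0.01, -0.07, 0.01 and 0.01. With replicates 1 and 2, definitive endoderm was 0.06 with shApela_1 (also with its members above the floor only) and -0.08 with shApela_2, streak with shApela_2 was 0.01, and between the hairpins the layers were -0.02, -0.10, -0.00 and -0.00. With 1 array left out, definitive endoderm ranged from -0.03 to 0.08 with shApela_1 and from -0.05 to 0.07 with shApela_2, and streak with shApela_2 from 0.02 to 0.15. Between the hairpins the ranges were 0.02 to 0.13 for primitive endoderm, -0.10 to 0.06 for definitive endoderm, 0.02 to 0.16 for streak and 0.01 to 0.12 for neuroectoderm. In 275 other combinations of layer, comparison and setting the median stayed within that spread.

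With the 99th percentile of receptor genes, the array median or the Hox genes as the floor, members above it in shLuc went from 12 to 7 in primitive endoderm, 4 to 0 in definitive endoderm and 7 to 1 in streak. In neuroectoderm, 5 of 10 members lay above the 99th percentile of receptor genes on all 9 arrays, and 5 above that of the Hox genes. Signal over background limits what can be said of the 8 members below the floor. It also limits Cubn, Hhex and Nes, which were above it on only 8 of the 9 arrays, and 3 arrays a group limit the rest.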
